A study of Homo sapiens with 4 samples.

Results

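The genes described here are 10 regulators of the early transcriptional response to growth factors and stress: the AP-1 subunits FOS, FOSL1, FOSL2, JUN and JUNB, the related factor ATF3, the zinc finger factor EGR1, the phosphatases DUSP5 and DUSP6, and the kinase SGK1. They were taken by name from 18417 genes that have a probe set with exactly 1 gene symbol on the arrays. Each of the 10 had 1 such probe set, and all 10 passed the filter on dim genes. The cells were DAOY, an established human medulloblastoma line of cerebellar origin. In all, 3 arrays came from cells with a lentiviral short hairpin RNA (shRNA) against ZFX, labelled ZFX KD (hairpins H2, H3 and H4, on 1 array apiece), and the other array from control cells carrying the non-targeting scrambled hairpin SCR, labelled Ctrl. ZFX is an X-linked transcription factor of the zinc finger type, and the comparison asks how gene expression differs when it is lowered. All 4 cultures shared the same handling: 16 to 24 hours with virus, 48 hours of recovery, and then about 48 hours in 2 ug/mL puromycin, which kills cells without the vector. Each array therefore reads a mixed pool of selected cells, and nothing in the labels says that any transduction was repeated.

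AP-1 is a dimer of a FOS-type and a JUN-type protein, or of JUN-type proteins alone, held together by leucine zippers. Many of its genes are immediate early genes, which growth factors switch on within minutes through the ERK kinase cascade and serum response factor (SRF), without new protein synthesis. SRF binds CArG boxes, AP-1 and ATF proteins bind AP-1 sites and cyclic AMP response elements (CRE), and EGR1 binds GC-rich sites. DUSP5 and DUSP6 are induced by ERK signalling and in turn remove phosphate from ERK.

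The promoter stretches of EGR1 and FOSL2, which read lower with every hairpin than on the scrambled array, and of SGK1, which read higher with every hairpin, are shown to place these elements. For EGR1 the H4 difference was only -0.0028 on the log2 scale, and it became 0.037 when each array was centred on its median. Each is the 250 bases before the RefSeq gene start in GRCh38.p14, read 5′ to 3′ on the gene's strand. EGR1 is at chr5:138465229-138465478 on the plus strand, FOSL2 at chr2:28392608-28392857 on the plus strand, and SGK1, for 1 of its 3 annotated starts, at chr6:134174867-134175116 on the minus strand. Capitals mark CArG boxes and CRE cores in EGR1, CRE cores in FOSL2, and EGR sites in SGK1.
EGR1: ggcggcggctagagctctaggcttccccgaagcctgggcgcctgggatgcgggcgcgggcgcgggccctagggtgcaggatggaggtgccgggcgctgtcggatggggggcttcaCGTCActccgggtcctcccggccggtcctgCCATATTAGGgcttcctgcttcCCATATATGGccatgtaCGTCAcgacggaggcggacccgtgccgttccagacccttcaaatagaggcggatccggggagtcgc
FOSL2: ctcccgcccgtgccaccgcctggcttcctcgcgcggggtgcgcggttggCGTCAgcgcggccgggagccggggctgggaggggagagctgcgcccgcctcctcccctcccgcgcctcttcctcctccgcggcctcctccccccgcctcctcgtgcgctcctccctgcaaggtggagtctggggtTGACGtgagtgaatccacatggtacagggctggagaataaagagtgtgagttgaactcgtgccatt
SGK1: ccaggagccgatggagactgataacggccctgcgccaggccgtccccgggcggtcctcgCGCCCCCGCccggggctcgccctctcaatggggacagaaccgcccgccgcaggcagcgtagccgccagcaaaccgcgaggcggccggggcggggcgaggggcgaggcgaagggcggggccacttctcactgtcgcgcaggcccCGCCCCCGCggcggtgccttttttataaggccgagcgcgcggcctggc

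Both strands were searched for CArG boxes, AP-1 sites (TGACTCA or TGAGTCA), CREs (TGACGTCA), CRE cores (TGACG, which every CRE also holds), EGR sites (GCGTGGGCG or GCGGGGGCG) and AGGCCT, the core of the sequence known for ZFX binding. The windows ran from 250 bases before to 50 bases after the start, and 8 of the 10 genes had one (11 windows, since ATF3 and SGK1 have several starts). FOSL1 and DUSP5 were the other members. The EGR1 window held 2 CArG boxes, whose first bases lie 105 and 83 bases before the start, and at least 1 CArG box was found in 1.29% of all 35116 windows of that length. CRE cores were found in 5 of the 8 genes, EGR1, FOS, FOSL2, JUN and JUNB, which have 1 window apiece. By window that is 5 of 11, against 24.6% of all windows. None of the 8 genes held a full CRE (1.85% of all windows). FOSL2 held an AP-1 site from base 5 of the transcript (4.95% of all windows). One SGK1 window held 2 EGR sites, 191 and 48 bases before that start (at least 1 in 5.77% of all windows). JUN was the member with AGGCCT, 78 bases before its start, as in 10.9% of all windows. These matches describe letters in the reference and not binding.

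The targeted gene was checked first. ZFX read 745, 749.6 and 996 with H2, H3 and H4, against 1430 on the scrambled array, or 52.1%, 52.4% and 69.6% of the scrambled level (average log2 difference -0.80 ± 0.24, SD, n = 3 hairpins; adjusted p = 0.9998 in limma). All values are linear intensities that the authors computed with RMA, a method that normalizes arrays together and summarises the probes of each probe set. The deposited arrays were not on exactly 1 distribution. Their median intensities were 228.1, 227.5 and 226.0 with H2, H3 and H4, and 232.3 with the scrambled hairpin. Across all probe sets H2 was the array least like the scrambled one (Pearson r = 0.9921 across probe sets, against 0.9962 for H3 and 0.9951 for H4). Among marker genes of DAOY, 9 of 11 passed the filter, including the cerebellar factors ZIC1 and ZIC2 and the Hedgehog receptor PTCH1, while NES and GLI1 did not. Of 7 haematopoietic markers 4 passed (CD14, CD68, LCP1 and LAPTM5) while PTPRC, CD3E and ITGAM did not, and of 6 endothelial markers TIE1 and TEK passed while PECAM1, CDH5, KDR and VWF did not. LCP1 read 404, 755 and 434 with H2, H3 and H4, against 1139.8 on the scrambled array. Of the 4 haematopoietic markers that passed, LCP1 was the only one lower than SCR with every hairpin. CD68 read 1853, 3253 and 2273, against 2570, and LAPTM5 read 271, 633 and 861, against 820. CD14 hardly differed, with 136, 131 and 134, against 133. Both endothelial markers that passed were lower with every hairpin. TIE1 read 286, 482 and 484, against 909, and TEK read 367, 631 and 649, against 774. The summed intensity of the 11 DAOY markers was 18582, 18726 and 18667 with H2, H3 and H4, against 18230 with the scrambled hairpin. For 5 neuron markers, of which 4 passed, the sum was 853, 767 and 882, against 848. The summed intensity of the 7 haematopoietic markers was 2872, 4969 and 3902, against 4859, and that of the 6 endothelial markers was 962, 1428 and 1461, against 2057. The part of these differences in the results below was not tested.

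None of the 10 genes passed the test of the 3 knockdown arrays against the scrambled array. Limma called 0 of them and 0 of 13813 genes tested (0%) at an adjusted p of 0.05, and 0 of the 10 had an unadjusted p under 0.05 in limma, against 3.23% of the genes tested. The members' smallest unadjusted p in limma was 0.062, for SGK1, and all 10 had an adjusted p of 0.9998. With 3 arrays against 1, the smallest two-sided p of an exact permutation test is 0.25. The values below therefore describe these 4 arrays. In that description, 3 of the 10 genes (EGR1, DUSP5 and FOSL2) read below the scrambled array with every hairpin, near the 30.6% of all genes tested, and 1 (SGK1) read above it with every hairpin, against 16.9% of all genes tested. These shares depend on the scaling. With each array centred on its median they were 23.3% and 23.6%. EGR1 then left the low side and DUSP6 joined SGK1 on the high side. None was 1.5-fold away with every hairpin, as were 0.311% of all genes on the low side and 0.0507% on the high side.

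**Figure D1:**
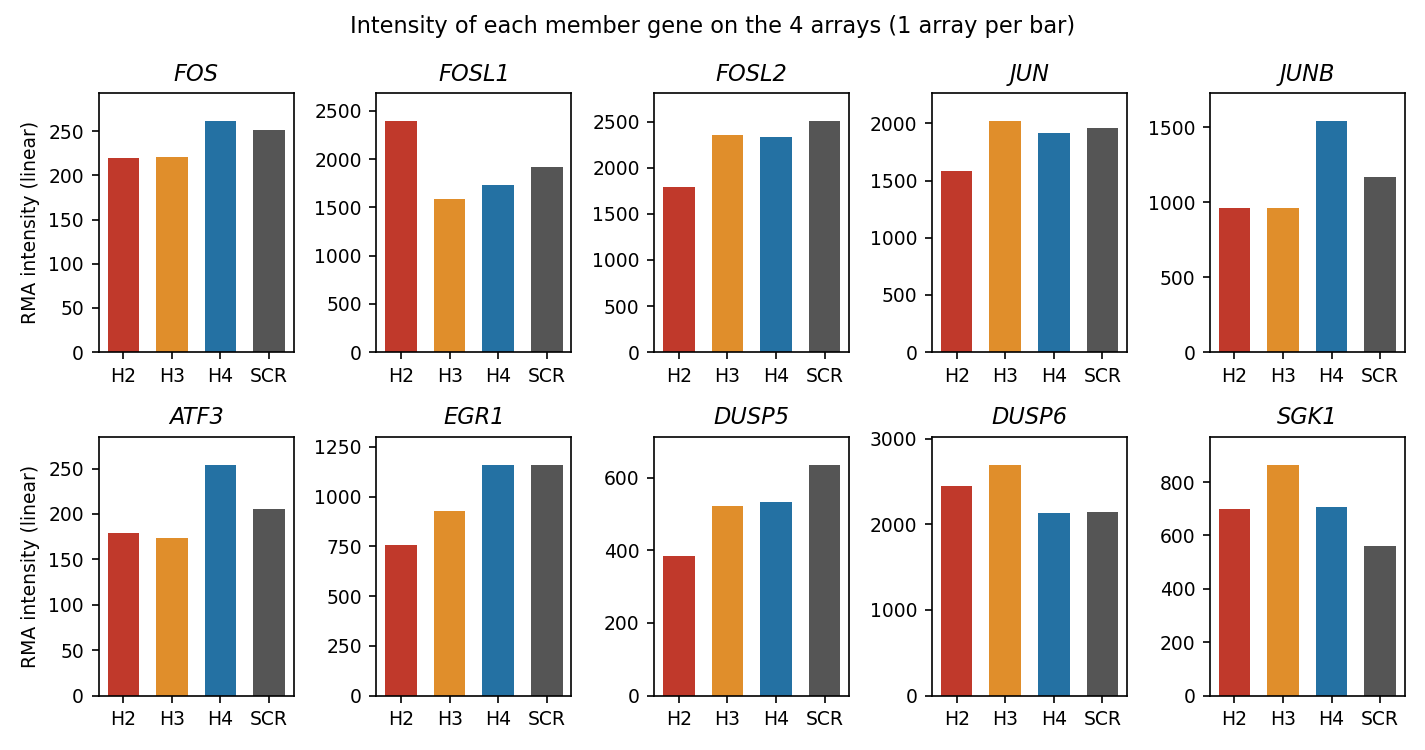
Linear RMA intensity (vertical axis, from 0) of each of the 10 genes on the H2, H3, H4 and scrambled (SCR) arrays, 1 array per bar. DUSP5 reads 385, 522 and 534 with the hairpins and 635 on the scrambled array, SGK1 reads above its scrambled bar of 560.3 with every hairpin, and JUNB and ATF3 are highest with H4.

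Among the FOS-type subunits, FOS, the prototype immediate early gene, read 219.8, 221 and 261 with H2, H3 and H4, against 252 on the scrambled array. The H2 and H3 values lay just below the scrambled one and the H4 value just above it, with log2 differences of -0.20, -0.19 and 0.054 and a mean of -0.11 ± 0.14 (SD, n = 3). The FOS probe set had a mean log2 intensity of 7.89, near the array medians of 7.82 to 7.86.

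FOSL1 encodes FRA-1, a FOS relative without a strong activation domain that is often abundant in mesenchymal tumour cells. It read 2392, 1585 and 1735 with H2, H3 and H4, against 1921 on the scrambled array. H2 was the highest of the 4 arrays and H3 the lowest, so the hairpins lay on both sides of the scrambled value (log2 differences 0.32, -0.28 and -0.15). The mean of -0.036 ± 0.31 (SD, n = 3) covers a range of 0.59 between hairpins, wider than that of 91.3% of the genes tested.

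FOSL2 encodes FRA-2, the other FRA protein. It read 1789, 2358 and 2328 with H2, H3 and H4, against 2504 on the scrambled array. All 3 hairpins were below the scrambled array, H2 by far the most, with log2 differences of -0.49, -0.087 and -0.11. The mean was -0.23 ± 0.22 (SD, n = 3), and without H2 it was -0.096.

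Of the JUN-type subunits, JUN, the partner that most FOS proteins bind, read 1582, 2019.6 and 1912 with H2, H3 and H4, against 1958 on the scrambled array. H3 and H4 lay close to the scrambled value on either side and only the H2 value stood away from it, at 80.8% of the scrambled level. The mean log2 difference was -0.099 ± 0.18 (SD, n = 3), and without H2 it was 0.0055.

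JUNB, which pairs with the same FOS proteins but activates many of their targets more weakly than JUN, had the widest spread of the 10 genes. It read 965, 965 and 1541 with H2, H3 and H4, against 1168 on the scrambled array. H2 and H3 had nearly the same value below the scrambled array, at 82.6% of its level each, and H4 was above it at 132.0%. The H4 array thus read 1.60-fold the H2 array at JUNB, where the mean of the hairpins differed from the scrambled array by only -0.050 ± 0.39 (SD, n = 3) on the log2 scale.

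ATF3, a stress-induced factor that pairs with JUN proteins, lay on the same sides of the scrambled array as JUNB. It read 179, 174 and 254 with H2, H3 and H4, against 206 on the scrambled array. Its mean log2 intensity of 7.65 was below the array medians of 7.82 to 7.86. H2 and H3 stood at 86.9% and 84.4% of the scrambled level and H4 at 123.5%, so the hairpins again fell on both sides of it. On the H4 array JUNB differed from the scrambled array by 0.40 and ATF3 by 0.30 on the log2 scale, more than 98.3% and 96.6% of the genes tested on that array. H4 was also the hairpin with the most ZFX left, and whether that has a part in these values was not tested.

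**Figure D2:**
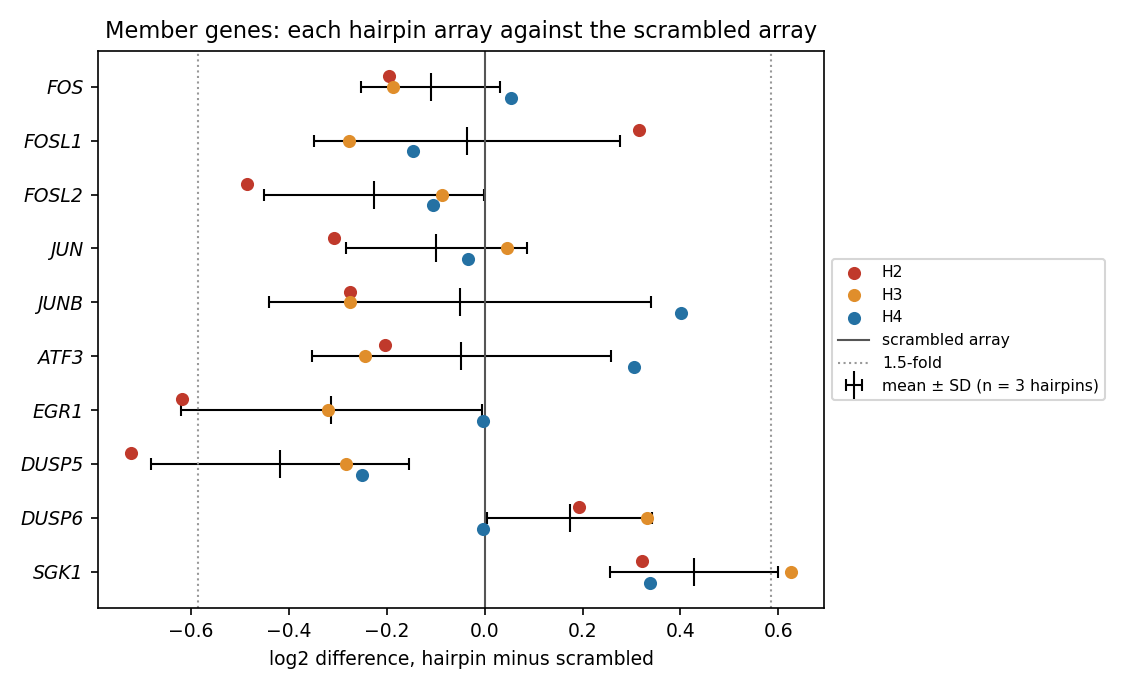
Log2 difference of each hairpin array from the scrambled array (horizontal axis) for the 10 genes, with the mean and SD over the 3 hairpins in black and dotted lines at 1.5-fold. EGR1, DUSP5 and FOSL2 lie left of 0 with every hairpin, although EGR1 with H4 is at -0.0028, SGK1 lies right of 0 with every hairpin, and the points of JUNB, ATF3 and FOSL1 fall on both sides.

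EGR1, an immediate early zinc finger factor, read 756, 929 and 1157 with H2, H3 and H4, against 1159.7 on the scrambled array. The hairpins were spread out, with H2 at 65.2% of the scrambled level, H3 at 80.1% and H4 at 99.8%. EGR1 differed by -0.31 ± 0.31 (SD, n = 3; SE 0.26 in limma, adjusted p = 0.9998 in limma) on the log2 scale. On the H2 and H3 arrays its difference was among the lower ones, with 4.995% and 5.95% of the genes tested lower still, but its place below the scrambled array with every hairpin rests on an H4 difference of -0.0028. That difference turned to 0.037 when each array was centred on its median, to 0.036 after quantile normalization and to 0.045 after cyclic loess. Without H2 the mean of EGR1 was -0.16.

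DUSP5, a nuclear phosphatase of ERK, had the largest deficit of the 10 genes. It read 385, 522 and 534 with H2, H3 and H4, against 635 on the scrambled array. All 3 hairpins were below the scrambled array, at 60.6%, 82.2% and 84.0% of its level. The closest of them was 0.25 from the scrambled array on the log2 scale, less than the range of 0.47 between hairpins. The mean log2 difference was -0.42 ± 0.26 (SD, n = 3; SE 0.23 in limma, adjusted p = 0.9998 in limma), and 4.03% of the genes tested had a lower mean. Without H2 the mean was -0.27, the smallest deficit over 12 alternatives, and it was negative under all 12.

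DUSP6, the cytoplasmic phosphatase of ERK, stood on the other side. It read 2451, 2695 and 2137 with H2, H3 and H4, against 2143 on the scrambled array. H2 and H3 were above the scrambled array, at 114.4% and 125.8% of its level, and H4 was level with it at 99.7%. The mean log2 difference was 0.17 ± 0.17 (SD, n = 3). Under each of the 3 other scalings the H4 difference of -0.004 became positive, from 0.015 to 0.036, which put DUSP6 above the scrambled array with every hairpin. The 2 phosphatases thus differed from the scrambled array in opposite directions on the H2 and H3 arrays, a contrast for which no test was run.

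SGK1, a kinase that serum and glucocorticoids induce and that acts on ion channels and survival pathways, had the largest excess. It read 699.99, 865 and 708 with H2, H3 and H4, against 560.3 on the scrambled array. All 3 hairpins were above the scrambled array, at 124.9%, 154.3% and 126.3% of its level, and the closest of them was further from the scrambled array (0.32 on the log2 scale) than the hairpins were from each other (range 0.31). SGK1 was 1.35-fold the scrambled level (average log2 difference 0.43 ± 0.17, SD, n = 3; SE 0.18 in limma, adjusted p = 0.9998 in limma), and 99.3% of the genes tested had a lower mean. The mean was positive under all 12 alternatives, between 0.33 and 0.48.

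By a likeness of the 3 hairpin differences (Euclidean distance on the log2 scale, over 3 arrays), the genes nearest to SGK1 were LRGUK (distance 0.089), DHDDS (0.11), RASGRP1 (0.14), ODAD4 (0.14) and SAMD5 (0.15). DHDDS, a subunit of the enzyme that makes dolichol precursors, read 3051, 3505 and 2882 with H2, H3 and H4, against 2402 on the scrambled array. RASGRP1, an exchange factor that activates RAS, read 134, 147 and 121, against 99.2, with a scrambled value of 6.63 on the log2 scale, under the filter level of 6.78. All 5 were highest with H3 and lowest on the scrambled array, as the choice by likeness requires.

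Single hairpins shaped these values. H2 was the lowest of the 4 arrays for 6 of the 10 genes (FOS, FOSL2, JUN, JUNB, EGR1 and DUSP5), against 32.5% of all genes tested, with H3 lowest for 2 (20.5% of all genes) and H4 for 1 (30.1%), although at FOS and JUNB the H2 and H3 values were within 0.0074 and 6.3e-05 of each other on the log2 scale. Below the scrambled array by any amount were 7 of the 10 genes with H2 (56% of all genes), 7 with H3 (55.5%) and 6 with H4 (61%). At 1.5-fold, 2 of the 10 genes (EGR1 and DUSP5) were low on the H2 array, against 5.61% of all genes tested, and 1 (SGK1) was high on the H3 array, against 0.528%. For EGR1 and SGK1 this depended on the processing. EGR1 on the H2 array fell short of 1.5-fold after quantile normalization (-0.55) and cyclic loess (-0.57). SGK1 on the H3 array fell just short of it (0.584) with 50 added to each intensity before log2. DUSP5 stayed 1.5-fold low on the H2 array under these settings. No member was 1.5-fold high on the H2 array (0.992% of all genes) or low on the H3 array (1.14%), and none was 1.5-fold away on the H4 array, where 2.17% of all genes were low and 0.608% were high. For the 10 genes the H2, H3 and H4 arrays had median differences of -0.24, -0.22 and -0.0034, against -0.030, -0.021 and -0.046 over all genes tested. Over the 3 hairpins the members' median was -0.074, against -0.035 for all genes. Without H4 it was -0.21, and 6 of the 10 genes were then below the scrambled array with both hairpins, against 39.4% of all genes. That count was the largest of the 3 obtained by leaving out 1 hairpin.

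**Figure D3:**
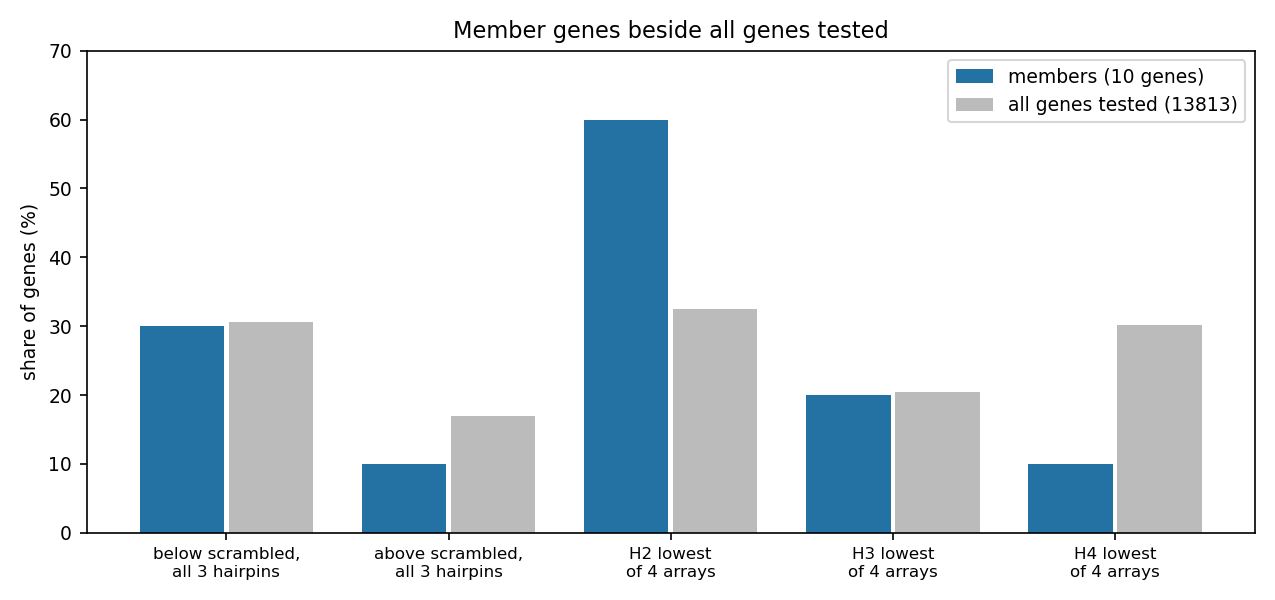
Share of genes (vertical axis, percent) that read below or above the scrambled array with all 3 hairpins, or had H2, H3 or H4 as the lowest of the 4 arrays, for the 10 genes (blue) beside all 13813 genes tested (grey). The shares below with all 3 hairpins are close (30% and 30.6%), and H2 is the lowest array for 60% of the members and 32.5% of all genes.

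Around the 10 genes, other subunits and partners of AP-1 lay on both sides. Of 14 listed, 12 had a probe set and were tested, 0 passed, 2 were below (30.6% of all genes) and 5 above (16.9%) the scrambled array with every hairpin, and the median was 0.012. FOSB, the fourth FOS protein, read 221, 207 and 251 with H2, H3 and H4, against 181 on the scrambled array (average log2 difference 0.31 ± 0.14, SD, n = 3). The FOSB probe set was dim, with a mean log2 intensity of 7.74, below every array median. JUND, the third JUN protein, read 844, 937 and 808, against 749.7 (0.20 ± 0.11). BATF3, a small factor that pairs with JUN proteins, differed by 0.13, 0.38 and 0.11 with H2, H3 and H4. JDP2, a repressor that occupies AP-1 sites with JUN, differed by -0.36, -0.092 and -0.51. FOSB and JUND thus read above the scrambled array with every hairpin, unlike any of the FOS and JUN proteins among the 10 genes.

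Of the other EGR factors and their corepressors, 4 of 5 were tested, 0 passed, and 2 were below (30.6% of all genes) and 0 above (16.9%) with every hairpin (median -0.14). NAB2, a corepressor that EGR1 itself induces, read 339.6, 402 and 379.7, against 442 on the scrambled array (average log2 difference -0.24 ± 0.12, SD, n = 3). Its relative NAB1 was low on the H2 array alone, with differences of -0.75, 0.087 and 0.100, and its mean of -0.19 became 0.094 without H2. EGR3 differed by -0.13, -0.065 and -0.069, and EGR4 had a mean of -0.0015 that changed sign under each other scaling. EGR3 and EGR4 were dim, with mean log2 intensities of 7.08 and 7.39, below every array median.

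Among 36 other immediate early genes tested of 38 listed, 14 (against 30.6% of all genes) were below the scrambled array with every hairpin, 0 were above it with every hairpin (16.9%), and 0 passed. The median was -0.099, with -0.083, -0.066 and -0.11 on H2, H3 and H4. After centring each array on its median it was -0.067, with 12 genes below and 1 above, where 23.3% of all genes were below and 23.6% above under that scaling. Before centring, 18, 23 and 17 of the 36 were below with both remaining hairpins without H2, H3 and H4. The shares of all genes were 40.1%, 40.6% and 39.4%. GADD45B, a stress-induced regulator of p38 and JNK signalling, read 426, 498 and 498, against 713 on the scrambled array (average log2 difference -0.59 ± 0.13, SD, n = 3). Its 3 hairpin values were close together and all below the scrambled value. RHOB, an immediate early small GTPase, was at -0.83, -0.48 and -0.099, the pseudokinase gene TRIB1 at -0.90, -0.20 and -0.19, and ZFP36L2, which promotes decay of AU-rich messenger RNAs, at -0.63, -0.24 and -0.19. In these 3 genes H2 stood lowest, as it did for EGR1 and DUSP5.

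The other MAP kinase phosphatases and the Sprouty and SPRED inhibitors of the cascade (15 tested of 15) had a median of -0.049, with 3 below (30.6% of all genes) and 0 above (16.9%) with every hairpin, and 0 passed. Without H2, H3 and H4, 5, 5 and 8 of the 15 were below with both remaining hairpins. The shares of all genes were 40.1%, 40.6% and 39.4%. DUSP7, the third cytoplasmic ERK phosphatase beside DUSP6, read 2186, 1889 and 1752, against 2449 (average log2 difference -0.34 ± 0.16, SD, n = 3). DUSP10, a phosphatase of p38 and JNK, was, like JUNB and ATF3, below the scrambled array with H2 and H3 and above it with H4, with 853, 886 and 1513, against 1236 on the scrambled array. DUSP4 differed by -0.32, -0.13 and 0.0039, and SPRY2 by 0.48, 0.18 and -0.12.

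Genes commonly read as ERK output (10 of 10 tested, 0 passed) had a median of -0.037, next to -0.035 for all genes. With every hairpin, 3 were below (30.6% of all genes) and 0 above (16.9%). SPRY2 and DUSP4 belong to this list too, as does SPRY4, which counts among the genes below with every hairpin in both lists. Cyclin D1 (CCND1), which is also in the list of AP-1 target genes, read 1978, 3638 and 3985, against 4131 on the scrambled array, and stood apart on the H2 array. EPHA2, an ephrin receptor, differed by -0.41, -0.18 and -0.32, and ETV4, an ETS factor, by -0.34, 0.20 and -0.38.

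In the ERK cascade with SRF and its cofactors, 14 of 20 listed genes were tested and 0 passed (median -0.10). With every hairpin, 5 were below (30.6% of all genes) and 1 above (16.9%). MAPK3, which encodes ERK1, read 433, 980 and 965 with H2, H3 and H4, against 1025 on the scrambled array. It was at 42.2% of the scrambled level with H2 and near it with H3 and H4, so the mean of -0.47 ± 0.67 (SD, n = 3) on the log2 scale rested on the H2 array. RPS6KA2, a kinase downstream of ERK, was at -0.67, -0.14 and -0.21, MRTFB, a cofactor of SRF, at -0.43, -0.049 and -0.29, and ELK1, an ETS partner of SRF, at -0.33, 0.0069 and -0.17. The list's median was 0.027 on the H3 array and -0.19 on the H2 array. Without H2, H3 and H4, 5, 11 and 6 of the 14 genes were below with both remaining hairpins. The shares of all genes were 40.1%, 40.6% and 39.4%.

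Of the JNK and p38 kinases and their activators, 10 of 14 were tested and 0 passed (median -0.086, and -0.030 without H4). With every hairpin, 4 were below (30.6% of all genes) and 1 above (16.9%). MAP3K1, an upstream activator of JNK and ERK, read 1215, 1465 and 1610, against 2018 (average log2 difference -0.51 ± 0.21, SD, n = 3). MAP2K4, which phosphorylates JNK, read 1384, 1332 and 1749, against 1961 (-0.41 ± 0.21). MAPK8, which encodes JNK1, differed by -0.44, -0.35 and 0.014. MAP3K5, the stress kinase ASK1, was above the scrambled array with every hairpin, with 237, 341 and 277, against 213 (0.40 ± 0.26).

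**Figure D4:**
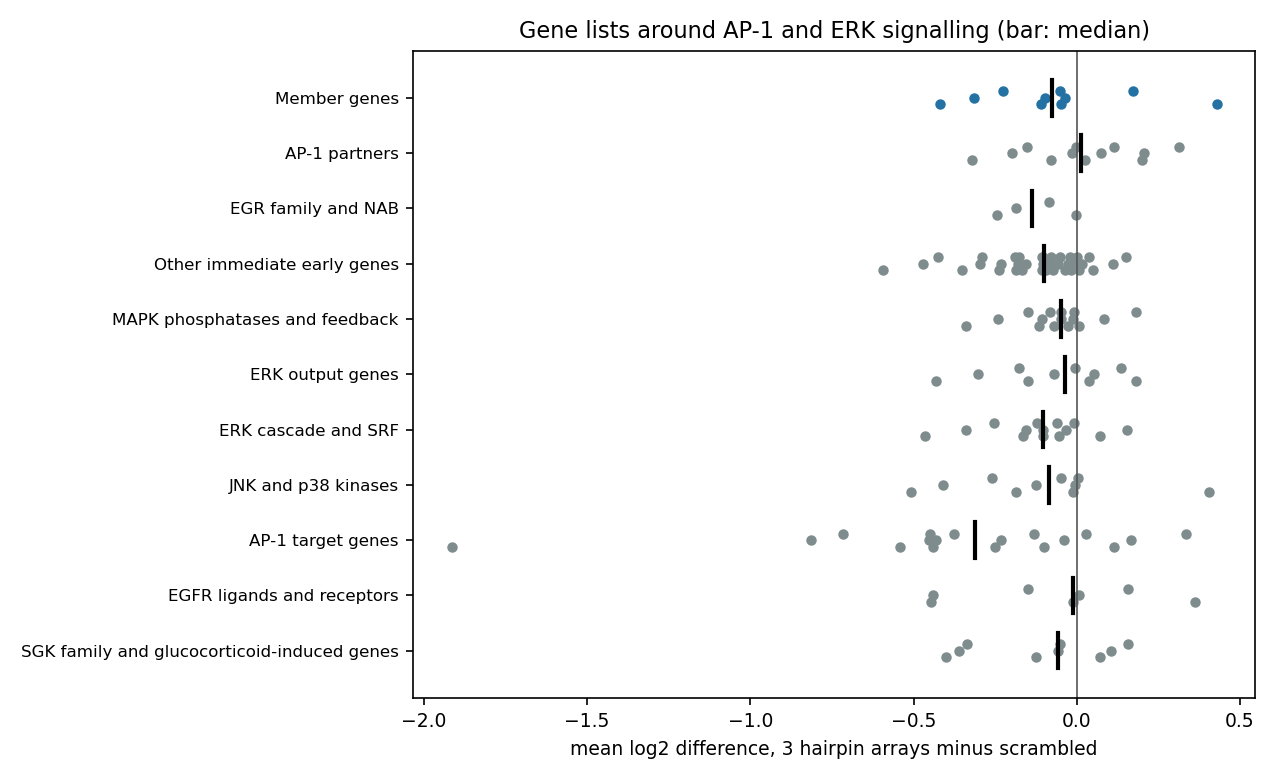
Mean log2 difference of the 3 hairpin arrays from the scrambled array (horizontal axis) for each tested gene of the 10 members (blue) and of 10 related lists (grey), with the median of each list as a black bar. The list medians lie between -0.31 (AP-1 target genes) and 0.012 (AP-1 partners), and the gene furthest left is IL1B at -1.92.

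Known AP-1 target genes lay lowest among these lists, with a median of -0.31 over 18 tested of 23 listed, against -0.035 for all genes. The list was chosen with earlier results of these data known, so its low place is a description only. It holds IL1B, and 0% of the genes tested had a lower mean than IL1B. Of the 18, 6 were below (30.6% of all genes) and 1 above (16.9%) the scrambled array with every hairpin, and 0 passed. On the H2, H3 and H4 arrays the list had medians of -0.54, -0.025 and -0.29, and leaving out H2 moved the overall median to -0.12. Without H2, H3 and H4, 7, 10 and 8 of the 18 were below with both remaining hairpins. The shares of all genes were 40.1%, 40.6% and 39.4%. IL1B, an inflammatory cytokine, read 152, 163 and 200.3, against 643 on the scrambled array, and was the 1 gene of the list at least 1.5-fold below with every hairpin. PLAU, the protease urokinase, read 2373, 2197 and 1680, against 3384 (average log2 difference -0.72 ± 0.26, SD, n = 3). SPP1, the matrix protein osteopontin, was at -0.74, -0.38 and -1.32, and the chemokine gene CXCL8 at -0.57, 0.091 and -1.15.

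Of the EGFR ligands and receptors, 7 of 12 were tested and 0 passed (median -0.010). With every hairpin, 2 were below (30.6% of all genes) and 2 above (16.9%). HBEGF, an EGFR ligand that ERK signalling induces, read 1558, 4140 and 2133, against 3251 on the scrambled array, with H3 above and the others below it. HBEGF is also in the list of AP-1 target genes. EGF differed by -0.86, -0.27 and -0.21, while NRG1 (0.56, 0.34 and 0.19) and TGFA (0.10, 0.13 and 0.24) were above the scrambled array with every hairpin. Of genes related to SGK1 or induced by glucocorticoids, 9 of 12 were tested and 0 passed (median -0.057, and -0.016 without H4). With every hairpin, 3 were below (30.6% of all genes) and 1 above (16.9%). TSC22D3, a glucocorticoid-induced leucine zipper gene, read 649, 640.4 and 605, against 798 on the scrambled array (average log2 difference -0.34 ± 0.054, SD, n = 3), the side opposite to SGK1. NDRG1, whose protein SGK1 phosphorylates, differed by -0.74, -0.48 and 0.017, NEDD4L, another SGK1 substrate, by -0.34, -0.19 and -0.56, and the glucocorticoid receptor gene NR3C1 by -0.11, 0.14 and 0.45.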

How the data were processed

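Expression was measured on whole-transcript arrays with 250 ng of total RNA per sample. The deposited intensities were summarised and normalized by the authors with RMA, per the submitters' processing notes. The software and version behind RMA, and a genome build, were not given in the sources used here. The intensities are linear (array medians 228.1, 227.5 and 226.0 with H2, H3 and H4, and 232.3 with SCR), so log2 was taken. Of 33297 probe sets, 19460 have exactly 1 symbol in the platform annotation, for 18417 genes; the probe set with the highest mean was kept per gene. Genes with a mean log2 intensity under the 25th percentile (6.78) were left out, leaving 13813.

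The H2, H3 and H4 arrays share 1 genotype label, served as replicates and were compared with the lone SCR array by limma 3.58.1 in R 4.3.3 (lmFit, then eBayes with an intensity trend, 2 residual degrees of freedom), with Benjamini-Hochberg adjustment over all 13813 genes. The spread of the lone SCR array is assumed equal to theirs, so the p-values measure only the spread between these arrays. That spread may be technical or may come from differences between the hairpins, which left unlike ZFX levels, and these cannot be told apart here. The SDs leave out the error of the SCR array. Single hairpins have 1 array a side and no p-value. No detection call, scan date or slide was used here, and precision is limited by having 4 arrays. From each list the genes at least 1.5-fold away with every hairpin are named, then those with the largest mean difference, up to 4. The members and lists were chosen with earlier results of these data known. Listed genes without a probe set of 1 symbol were not analysed here. Promoter sequences come from RefSeq (GRCh38.p14). Python 3.11.15, pandas 2.3.3 and matplotlib 3.10.9 served for motif searches and figures.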

Additional observations from a re-analysis of the deposited data

How the results depend on the processing

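Over 12 alternatives (3 other scalings, 2 other filters, another rule for probe sets, 2 other variance models, an offset of 50 and leaving out each hairpin), 0 genes were called in limma and 0 members were 1.5-fold away with every remaining hairpin. FOS, FOSL2, EGR1, DUSP5, DUSP6 and SGK1 kept the sign of their mean throughout. The number of members above SCR with every hairpin was 2 under median centring, quantile normalization and cyclic loess, when DUSP6 joined SGK1, and 1 to 2 when a hairpin was left out. The number below was 2 under those scalings, when EGR1 left it, and 4 to 6 when a hairpin was left out, since fewer arrays had to be below. In the same order of scalings, 23.6%, 22% and 20.8% of all genes were above, and 23.3%, 25% and 26.3% below. With a hairpin left out, 23.5% to 27.9% of all genes were above and 39.4% to 40.6% below. The members' median ranged from -0.21 without H4 to -0.010 without H3. Leaving out a hairpin moved the mean of ATF3 between -0.22 and 0.051, FOSL1 between -0.21 and 0.085, JUN between -0.17 and 0.0055, JUNB between -0.28 and 0.063, NAB1 between -0.33 and 0.094, and EGR4 between -0.037 and 0.054. EGR4 was also at 0.031 under centring, 0.0095 under quantile normalization and 0.0036 under cyclic loess. ZFX stayed between -0.94 and -0.73. Without H2 the median was -0.052 for the EGR and NAB list, -0.043 for the ERK cascade and -0.13 for the JNK and p38 kinases; without H3 it was -0.16 for the ERK cascade, -0.096 for the phosphatases and inhibitors, -0.098 for ERK output and -0.11 for the SGK1-related list. The cause of these shifts was not tested. No paired analysis was possible because the groups share no replicate numbers beyond a single array of SCR. No background reading was used here, so how far each signal stood above background is unknown.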
